A study of Ovis aries with 6 samples.

Results

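The miRNAs miR-208a, miR-208b and miR-499 were examined in small RNA libraries of longissimus muscle from 2 breeds of sheep, 3 libraries of Qianhua Mutton Merino (QHMM) and 3 of Small Tail Han (STH). Members were chosen by name. All rows called miR-208a, miR-208b, miR-499, miR-499a or miR-499b, with or without an arm, were taken after the species prefix was removed, and the row with the highest total count stood for each name. This gave 6 mature names of 10430 in all, both arms of each of 3 loci. The animals were kept under natural conditions with no treatment other than breed, and the labels give no age or sex. Nor do they state that the 3 libraries of a breed are of 3 different animals. The p-values therefore set the breed difference against the spread between these libraries, which may be technical.

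These miRNAs are known as the myosin intron miRNAs, or MyomiRs. In mammals miR-208a lies in an intron of MYH6, the fast alpha myosin heavy chain gene of the heart, miR-208b in an intron of MYH7, the beta or slow myosin heavy chain gene of heart and slow muscle fibres, and miR-499 in an intron of MYH7B. Each is made with the transcript of its host gene. In mouse muscle, miR-208b and miR-499 are known to repress inhibitors of the slow fibre programme such as Sox6, and miR-208a is known as a miRNA of heart muscle. The mRNAs of the host genes were not measured in these libraries.

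The sequences counted at the 3 loci are shown because the members fall into groups by their seed, the bases by which a miRNA recognises its targets (bases 2 to 8, in capitals, counted from the 5′ end). All are the sequences of the deposited count table, written as DNA 5′ to 3′.
miR-499-5p: tTAAGACTtgcagtgatgtt
miR-208b-3p: aTAAGACGaacaaaaggtttg
miR-208a-3p: aTAAGACGagcaaaaagcttg
miR-499-3p: aCATCACAgcaagtctgtgc
miR-208b-5p: aAGCTTTTtgctcgcgttatg
miR-208a-5p: gAGCTTTTggcccgggttata
The abundant arms of miR-208a and miR-208b had the same seed, TAAGACG. That of miR-499-5p, TAAGACT, was the same up to base 7 and differed at base 8. Counted from 1 at the 5′ end of miR-208b-3p, the miR-208 3p arms differed from each other at 3 of 21 positions (A10G, G16A and T18C), and the 5p arms at 5 of 21 (A1G, T9G, T12C, C15G and G21A, counted in miR-208b-5p). miR-499-5p had 10 of 20 positions in common with miR-208b-3p and 12 of 20 with miR-208a-3p. No row of another name with at least 10 counts in total carried a seed of these arms. The miR-208 arms hold runs of 1 base of 4 or 5 nt, and the miR-499 arms runs of at most 2 nt. Whether these runs affected the counts of the loci was not tested.

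All 6 rows that stood for a member were loci predicted from these reads, which the table labels with a chromosome of the build and a running number. The miR-499 arms came from 1 locus on chromosome 13, and the miR-208b and miR-208a arms from a locus each on chromosome 7, with the locus numbers 17775 and 17777. The build is Oar_v3.1 by the submitters' processing notes. The start and end of the loci are not analysed here. At each locus the arm the table calls mature was the more abundant one, 5p for miR-499 and 3p for miR-208b and miR-208a. The rat names miR-499-5p and miR-499-3p also stood in rows of their own, 21 and 22 nt long, with 3 and 2 counts over all libraries. These rows were used only in an alternative fit and its ratios, where all rows of a name were summed.

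The total count per library over all rows was 8062231 to 11282332, and over 1 row per name, it was 5572865 to 7930202. Levels are given as CPM, counts scaled to a total of 1000000 over these names. That the libraries are of muscle was checked with the 12 names of miR-1, miR-133 and miR-206, miRNAs made at high level in skeletal muscle fibres. They summed to 514906 to 545477 CPM in QHMM and 449728 to 536007 CPM in STH. Most of this sum was miR-1b and miR-133. miR-206-3p, which is made in skeletal but not heart muscle, had a mean of 32545 CPM in QHMM and 39279 CPM in STH. Marker lists of other cell types also differed between libraries. Red blood cell names (5 names, 3 of them counted in every library) summed to 18943 to 84277 CPM in QHMM, with the highest value in QHMM replicate 3, and to 7274 to 13819 CPM in STH. Leukocyte names (7 names, 5 counted in every library) summed to 1765 to 1942 CPM in QHMM and 1165 to 1425 CPM in STH, again without overlap. Single names of this list did not all go the same way, as given below. The sums of the lists for endothelium, for smooth muscle of vessels and for fibroblasts overlapped between the breeds.

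The level of the myosin intron miRNAs followed 1 order in 6 of 6 libraries. miR-499-5p stood first, followed by miR-499-3p, miR-208b-3p, miR-208b-5p, miR-208a-3p and miR-208a-5p. Mean CPM over the 6 libraries was 1689 ± 1085 (SD) for miR-499-5p, in place 51 of the 10430 names, 341 ± 212 for miR-499-3p in place 109 and 104 ± 54.0 for miR-208b-3p in place 197. miR-208b-5p had 4.75 ± 1.59 CPM, in place 744, and miR-208a-3p 1.67 ± 1.10 CPM, in place 1157. All 3 loci were thus counted in longissimus muscle, with miR-499 most abundant and miR-208a, the one known from heart, lowest, with at most 26 counts of its 3p arm in a library. The 6 sequences are 20 or 21 nt long, and each level is of reads per mature sequence, with no correction for the sequence.

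**Figure D1:**
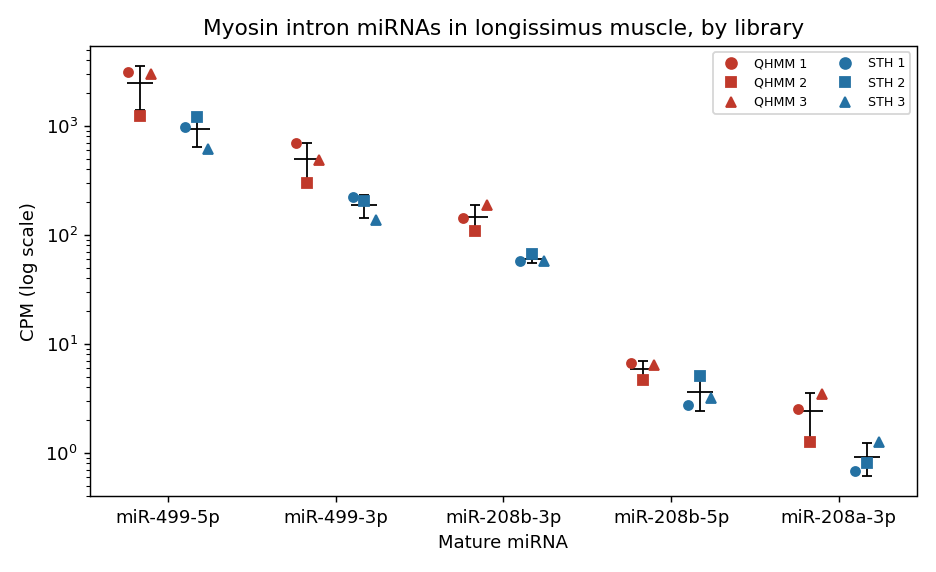
CPM (log scale) of 5 myosin intron miRNAs in each library of QHMM and STH longissimus muscle. Points are libraries, horizontal marks are means of 3 libraries and bars their SD. The QHMM libraries lie above the STH libraries for miR-499-5p, miR-499-3p and miR-208b-3p, and the breeds overlap for miR-208b-5p and miR-208a-3p. miR-208a-5p, with 7 counts in total, is not drawn.

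The mean of both arms of miR-499 was higher in QHMM, and for miR-499-3p the difference passed the test. miR-499-3p, the less abundant arm, had 699, 301 and 484 CPM in QHMM replicates 1, 2 and 3 and 223, 202 and 136 CPM in STH replicates 1, 2 and 3. The lowest QHMM library lay 1.35 times above the highest STH library. Averaged over 3 libraries, QHMM had 495 ± 200 CPM (SD) against 187 ± 45.5 CPM (SD) over the 3 of STH. The log2 fold change, QHMM over STH, was 1.35 with a standard error of 0.31 (adjusted p = 0.0419, edgeR quasi-likelihood test with Benjamini-Hochberg adjustment over the 1274 names tested). It passed in 5 of 15 other settings, and in 1 of the 6 that left out a library, without QHMM replicate 2 (1.56, adjusted p = 0.0329, edgeR).

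miR-499-5p, the arm that carries the TAAGACT seed, had 3130, 1233 and 2989 CPM in QHMM and 969, 1195 and 615 CPM in STH. QHMM replicates 1 and 3 were far above all others, while QHMM replicate 2 exceeded the highest STH library by a factor of only 1.03. QHMM averaged 2451 ± 1057 CPM and STH 926 ± 292 CPM (SD, n = 3 each). The log2 fold change was 1.35, close to that of the other arm, but with a standard error of 0.34 it did not pass (adjusted p = 0.0782, edgeR). Of the 6 fits that left out a library, it passed in 1, without QHMM replicate 2 (1.62, adjusted p = 0.0239, edgeR), and the adjusted p of the others reached 0.215.

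miR-208b-3p, the mature arm of the MYH7 intron, rose in QHMM by a similar size. It had 142, 109 and 189 CPM in QHMM and 57.9, 65.9 and 56.9 CPM in STH. The STH libraries were nearly alike, with the highest 1.16 times the lowest, and the lowest QHMM library stood 1.65 times above the highest of STH. QHMM averaged 147 ± 40.4 CPM and STH 60.2 ± 4.96 CPM (SD, n = 3 each). The log2 fold change was 1.27 with a standard error of 0.29 (adjusted p = 0.0419, edgeR). It passed in 5 of 15 other settings, and in 1 of the 6 that left out a library, without QHMM replicate 1 (1.30, adjusted p = 0.0448, edgeR).

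The passenger arm miR-208b-5p was counted 50, 26 and 47 times in QHMM and 20, 31 and 25 times in STH. This is 6.63, 4.67 and 6.31 CPM against 2.73, 5.02 and 3.15 CPM, and the breeds overlapped, since QHMM replicate 2 lay below STH replicate 2. The exact Poisson 95% intervals of these 2 libraries were 3.05 to 6.84 and 3.41 to 7.13 CPM. The log2 fold change was 0.67 with a standard error of 0.38 (adjusted p = 0.454, edgeR).

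miR-208a was counted at so low a level that neither arm passed the filter on low counts over the 6 libraries, and neither was tested there. With 1 library left out, miR-208a-3p passed the filter in 4 of the 6 fits, with an adjusted p of at least 0.185 (edgeR). miR-208a-3p had 19, 7 and 26 counts in QHMM and 5, 5 and 10 counts in STH, or 2.52, 1.26 and 3.49 CPM against 0.683, 0.810 and 1.26 CPM. QHMM replicate 2 and STH replicate 3 were almost equal. By exact Poisson 95% limits, 5 counts stand for 1.62 to 11.7 and 7 counts for 2.81 to 14.4. For miR-208a-5p the QHMM libraries held 4, 0 and 1 counts and the STH libraries 0, 1 and 1, where a count of 0 allows up to 3 counts by a one-sided limit, lower than the two-sided one used above, or 0.538 CPM in QHMM replicate 2 and 0.410 CPM in STH replicate 1. A breed difference of miR-208a-5p was not detectable at this depth. All intervals cover counting error only.

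In all, 4 of the 6 members passed the filter, and all 4 had a log2 fold change above 0, with a median of 1.31 where the median of the 1274 names tested was 0.031. With adjusted p under 0.05, 2 of the 4 were called, both higher in QHMM. Over all names tested, 2.2% were called in either direction, 0.314% (4 names) as higher in QHMM and 1.88% as higher in STH, so that miR-499-3p and miR-208b-3p made up 2 of the 4 calls higher in QHMM. This number was not stable. It was 0 without QHMM replicate 3 or STH replicate 1, 1 without STH replicate 2, 2 without QHMM replicate 1 or STH replicate 3, 0 with known names only or with at least 10 counts per library, and 16 without the filter. The unadjusted p was under 0.05 with a higher level in QHMM for 3 of the 4 members, and for 6.04% of all names tested. Of the 4 members tested, 3 had every QHMM library above every STH library, which held for 8.48% of all names tested, and 0 had the reverse, which held for 8.71%. Only 21 of the names tested had a log2 fold change above that of miR-499-3p, 22 above that of miR-499-5p and 31 above that of miR-208b-3p. The 4 members tested are both arms of miR-499 and both arms of miR-208b. Arms of the same locus share a precursor, so the members are not independent of each other.

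**Figure D2:**
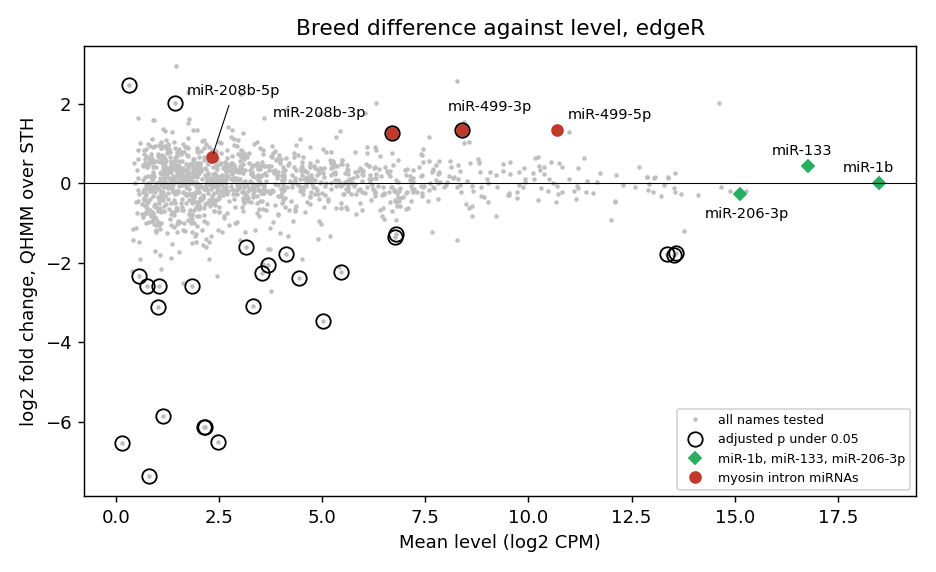
log2 fold change, QHMM over STH, from edgeR against mean level (log2 CPM) for the 1274 names tested. Grey points are all names, circles mark the 28 with an adjusted p under 0.05, red points the 4 myosin intron miRNAs tested and green diamonds miR-1b, miR-133 and miR-206-3p. miR-499-5p, miR-499-3p and miR-208b-3p lie at 1.27 to 1.35, above most names of their level.

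The share of the 2 arms at the miR-499 locus varied between libraries, and its means differed little between the breeds. miR-499-3p made up 18.3%, 19.6% and 13.9% of the reads of both arms in QHMM and 18.7%, 14.5% and 18.1% in STH. QHMM replicate 3 and STH replicate 2 were lower than the other 4, with exact binomial 95% intervals of 13.5% to 14.4% and 13.7% to 15.2%, while the intervals of the others began at 17.1% or above. The mean was 17.3% ± 2.96 (SD, n = 3) in QHMM and 17.1% ± 2.30 (SD, n = 3) in STH. The difference in the log2 ratio of 5p over 3p, QHMM minus STH, was -0.011 with a standard error of 0.23 (p = 0.90 in a two-sided exact permutation test, which with 3 against 3 libraries cannot fall below 0.10). Because the arms are compared within a library, the scaling of libraries does not touch this ratio.

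At the miR-208b locus the passenger arm was a much smaller part. miR-208b-5p made up 4.46%, 4.10% and 3.23% of both arms in QHMM and 4.50%, 7.08% and 5.25% in STH. All 3 STH libraries lay above the QHMM libraries, although STH replicate 1 exceeded QHMM replicate 1 only slightly. The exact binomial 95% intervals were wide, 2.38% to 4.27% in QHMM replicate 3 and 4.86% to 9.90% in STH replicate 2, and those of all other pairs of a QHMM and an STH library overlapped. The difference in log2 ratio of 5p over 3p was -0.54 with a standard error of 0.25 (exact permutation test, two-sided, p = 0.10, the smallest that this design allows). Over all libraries, the 3p arm of miR-208b had 22.0 reads for each read of 5p, the 5p arm of miR-499 had 4.97 for each of 3p, and miR-208a-3p had 10.3 for each of miR-208a-5p, the last from 79 reads.

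**Figure D3:**
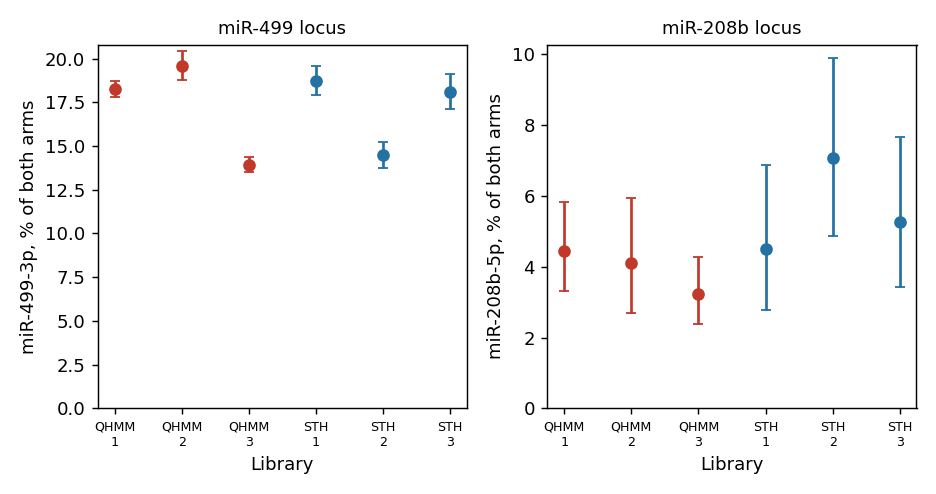
Share of the less abundant arm in the reads of both arms (%), per library, for miR-499-3p (left) and miR-208b-5p (right). Points are single libraries, red QHMM and blue STH, and bars are exact binomial 95% intervals, which cover counting error only. QHMM replicate 3 and STH replicate 2 have the lowest shares of miR-499-3p, 13.9% and 14.5%.

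The proportion of the 2 loci to each other did not separate the breeds. For each read of miR-208b-3p there were 22.0, 11.3 and 15.8 reads of miR-499-5p in QHMM and 16.7, 18.1 and 10.8 in STH. QHMM replicate 1 had the highest ratio and STH replicate 3 the lowest, and the breeds overlapped. The log2 ratio differed by 0.088 with a standard error of 0.36 (exact permutation test, two-sided, p = 0.90). Within the miR-208 pair, miR-208a-3p made up 1.74%, 1.14% and 1.81% of the reads of both 3p arms in QHMM and 1.17%, 1.21% and 2.17% in STH. All 6 exact binomial 95% intervals overlapped, and the share over all libraries was 1.62% (1.27% to 2.04%). The counting of reads that could match both 3p arms is not given in the sources used here.

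Both loci were also set against the muscle fibre miRNAs of the same library, where the breeds stayed apart for miR-208b-3p and overlapped for miR-499-5p. miR-208b-3p had 267, 200 and 368 reads per 1000000 reads of the 12 miR-1, miR-133 and miR-206 names in QHMM and 129, 128 and 106 in STH, without overlap. The log2 difference was 1.16 with a standard error of 0.27 (exact permutation test, two-sided, p = 0.10). miR-499-5p had 5892, 2261 and 5806 reads per 1000000 of these reads in QHMM and 2155, 2321 and 1147 in STH. On this scale QHMM replicate 2 fell below STH replicate 2, and the log2 difference of 1.25 with a standard error of 0.56 had p = 0.20 (exact permutation test, two-sided). In all, 5 ratios were tested, and since no raw p can go below 0.10, no adjusted value can either.

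Other miRNAs of muscle fibres gave no call. Of the miR-1, miR-133, miR-206 and miR-486 names, 10 were tested, 5 of them above 0, with a median log2 fold change of -0.00098. None passed with edgeR, where 1 had an unadjusted p under 0.05, and 0 of 11 passed with DESeq2, where 0 had an unadjusted p under 0.05. miR-1b, the row with the most counts of the mature miR-1 sequence, had a log2 fold change of 0.014 (standard error 0.19), and it was above 0 in only 7 of 15 other settings (-0.20 to 0.099), with -0.028 by upper-quartile factors and -0.079 by scaling to the muscle miRNAs. The row miR-1-3p holds the same sequence with an added t at its 3′ end. With 16169 counts in total, it had -0.58 (standard error 0.36, adjusted p = 0.507, edgeR). miR-206-3p, a miRNA of skeletal but not heart muscle, had -0.27 (standard error 0.19, adjusted p = 0.582, edgeR), below 0 in all 15 other settings. Its STH libraries (38825, 40746 and 38267 CPM) all lay above its QHMM libraries (33291, 35806 and 28539 CPM). miR-1b-5p, with 115 counts in total, also had every STH library above every QHMM library. miR-1-5p, with 118 counts, had the reverse. Over all names tested, 8.71% had STH above in this way and 8.48% had QHMM above. miR-133 had 0.43 (standard error 0.18, adjusted p = 0.329, edgeR).

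miR-133 nonetheless shared part of the library pattern of miR-499-5p. It had 158425, 89730 and 145813 CPM in QHMM and 94432, 92803 and 98909 CPM in STH, so that QHMM replicates 1 and 3 were high and QHMM replicate 2 was low, as for miR-499-5p. A comparison with miR-133 alone was chosen after these values were seen. Per 1000 reads of miR-133, miR-499-5p had 19.8, 13.7 and 20.5 reads in QHMM and 10.3, 12.9 and 6.22 in STH. miR-208b-3p had 0.897, 1.22 and 1.30 reads in QHMM and 0.613, 0.710 and 0.575 in STH. For both, all QHMM libraries stayed above all STH libraries on this scale.

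**Figure D4:**
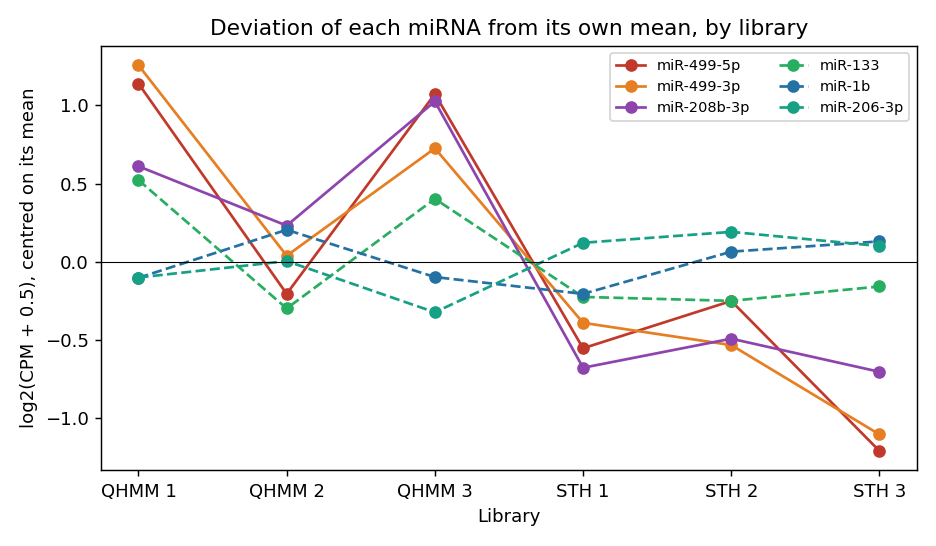
log2(CPM + 0.5) of 6 miRNAs in each library, centred on the mean of each miRNA over the 6 libraries. Lines only join the points of 1 miRNA, solid for the myosin intron miRNAs and dashed for miR-133, miR-1b and miR-206-3p. The solid lines are high in QHMM replicates 1 and 3 and low in STH, and miR-133 is high in the same 2 libraries.

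The likeness of 2 miRNAs was measured as the root mean square difference of their centred log2(CPM + 0.5) values over the 6 libraries, a distance without a test, against 534 other names with a mean of at least 10 CPM. miR-499-5p was nearest to its own other arm, miR-499-3p (distance 0.23), and then to miR-208b-3p (0.37), and no other name was nearer than these. The nearest names outside the members were an unnamed predicted locus on chromosome 7 (0.43), an unnamed predicted locus on chromosome 17 (0.45) and miR-500a-5p (0.46), where the median distance was 0.90. miR-133 stood in place 29 with a distance of 0.58.

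For miR-208b-3p the nearest names were not members. The first was miR-142-3p (distance 0.29), a miRNA of leukocytes, the second the same locus on chromosome 17 (0.29) and the third miR-190b-5p (0.30), with a median distance of 0.75 over the 534 names. miR-499-3p and miR-499-5p, at 0.36 and 0.37, had 12 of the other names nearer than themselves. miR-133 stood in place 42 with a distance of 0.45. miR-142-3p had 405, 492 and 606 CPM in QHMM and 241, 218 and 282 CPM in STH, with a log2 fold change of 1.03 (adjusted p = 0.0796, edgeR). Other leukocyte names tested did not all go the same way. The log2 fold change was 0.71 for miR-142-5p, 0.29 for miR-150, -0.23 for miR-223-3p and -0.25 for miR-223-5p. The libraries of miR-142-3p did not overlap between the breeds, as those of miR-208b-3p did not. The part of leukocyte RNA in the result was not tested. The 6 libraries are all that this distance rests on, and names that differ by breed in the same direction are near to each other by construction.

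Of the 3 red blood cell names tested, 0 passed with edgeR and 1, miR-451-5p, had an unadjusted p under 0.05, while the sums of the list did not overlap between the breeds. miR-451-5p had a log2 fold change of 2.03 (adjusted p = 0.334, edgeR). The part of blood in the results was not tested. Without QHMM replicate 3, the library with the highest sum of red blood cell names, the log2 fold change of miR-499-3p was 1.33 (adjusted p = 0.143), that of miR-208b-3p 1.02 (adjusted p = 0.152) and that of miR-499-5p 1.13 (adjusted p = 0.212, all edgeR). QHMM replicates 1 and 2, with sums of 18943 and 19900 CPM, still lay above the highest STH sum of 13819 CPM. This fit therefore does not separate blood from breed. In libraries made from tissue, more cells of a type and more RNA per cell cannot be told apart. The fibre types of the samples were not measured.

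A predicted locus on chromosome 5, with no known name, shares 14 of its 18 nt with miR-499-5p in 1 run and was looked at after its values were seen. Its sequence, aagacttgcagtgagtgt, begins 2 bases after the start of miR-499-5p and has another 3′ end. It had 10, 5 and 10 counts in QHMM and 4, 3 and 6 counts in STH, against 4876 to 23621 counts of miR-499-5p. Whether these are reads of miR-499-5p was not tested.

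**Figure D5:**
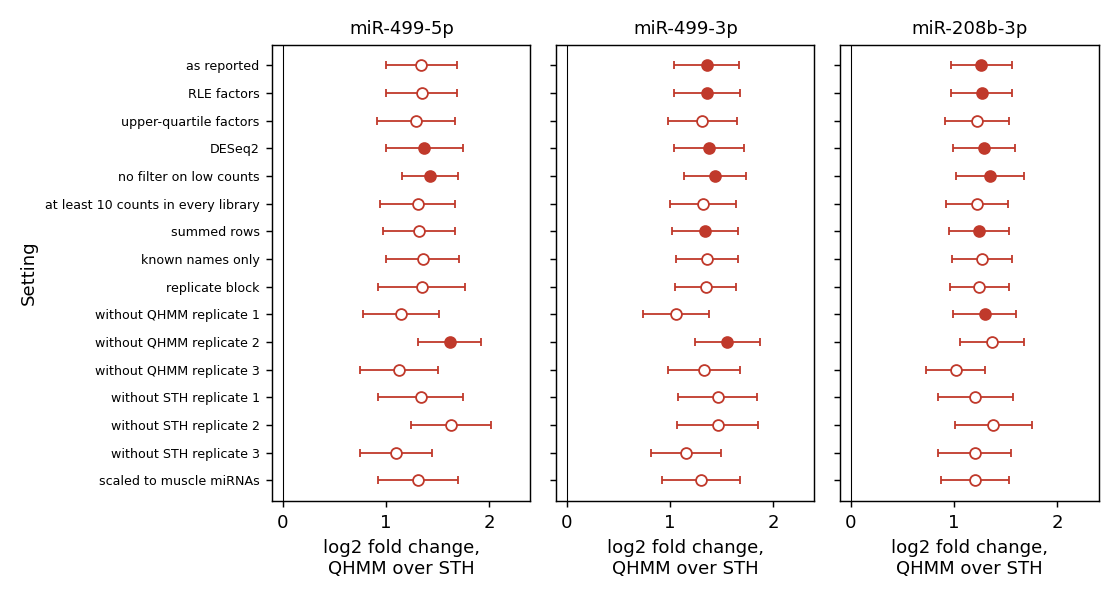
log2 fold change, QHMM over STH, of miR-499-5p, miR-499-3p and miR-208b-3p under each setting. Bars are standard errors, and filled points have an adjusted p under 0.05. All values lie between 1.02 and 1.63, and the side of the threshold changes with the setting for each of the 3 miRNAs.

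The size of the difference varied less than the call. Over 15 other settings, the log2 fold change stayed above 0 in 15 of 15 for each of the 4 members tested, and for the 2 calls it ran from 1.06 to 1.56 (miR-499-3p) and from 1.02 to 1.38 (miR-208b-3p). All settings reuse the same 6 libraries or leave out 1 of them, so the shared sign is not independent support. The adjusted p from edgeR or DESeq2 was under 0.05 in 5 of these 15 settings for miR-499-3p and in 5 for miR-208b-3p. For miR-499-5p it was under 0.05 in 3 of 15, and for miR-208b-5p in 0. With any 1 library other than QHMM replicate 2 left out, miR-499-3p no longer passed (adjusted p up to 0.184, edgeR), and miR-208b-3p no longer passed with any 1 other than QHMM replicate 1 left out (adjusted p also up to 0.184, edgeR).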

How the data were processed

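Total RNA of longissimus muscle had been made into size-selected small RNA libraries and read from one end by Ion Proton sequencing. The deposited table holds raw read counts, whole numbers for each mature sequence. The submitters' processing notes list Oar_v3.1 and DESeq, and the aligner, the predictor and the treatment of reads that match more than 1 row were not stated in the sources at hand. The 11161 rows were reduced to 10430 names, the row with the highest total standing for each. CPM are counts scaled to 1000000 over these names. QHMM and STH were tested against each other by the robust quasi-likelihood test of edgeR 4.0.16 (R 4.3.3) with TMM factors and breed as the only term. filterByExpr kept 1274 names, a Benjamini-Hochberg adjusted p under 0.05 was a call, and each standard error was calculated back from F. Ratios within a library (0.5 added to each count) were compared with exact permutation tests in scipy 1.17.1. Alternatives used DESeq2 1.42.0.

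The members and lists were chosen with earlier results of these data known. Named are all members, other rows with a member's seed and at least 10 counts in total (there were 0), the miR-1, miR-133, miR-206 and miR-486 names and the 3 names most alike in pattern to miR-499-5p and to miR-208b-3p. miR-451-5p, as a marker of red blood cells, and the locus on chromosome 5 fall outside this rule and were named after their values were seen. The same holds for miR-142-5p, miR-150, miR-223-3p and miR-223-5p, as markers of leukocytes. Columns without a sample numbered 0. Libraries of a breed differed by a chi-square per degree of freedom of at least 80.3, far above sampling noise. In data simulated for the breed comparison over 1200 names, the share called by edgeR was 26.3% at a 2-fold change, 96.8% at a 4-fold change and 0.595% where nothing was changed.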

Additional observations from a re-analysis of the deposited data

How the results depend on the processing

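Of the 28 names called between the breeds, the number became 64 when low counts were not filtered, 8 when each library had to hold at least 10 counts, 6 with known names only, and from 16 up to 35 when a single library was left out (16 without QHMM replicate 3 or STH replicate 3, 18 without STH replicate 2). The calls higher in QHMM were 0 without QHMM replicate 3 or STH replicate 1, 0 with known names only or the minimum of 10 counts, and 16 without the filter. The cause was not tested. Other settings gave 26 to 39. miR-499-3p and miR-208b-3p lost the threshold with upper-quartile factors (log2 fold change 1.32 and 1.22), a minimum of 10 counts in all libraries (1.32 and 1.23), known names only (1.36 and 1.27) and scaling to the muscle miRNAs (1.30 and 1.20). miR-499-5p passed with DESeq2 (1.37) and with no filter on low counts (1.43). With each library left out, miR-499-3p ran from 1.06 to 1.56 and passed only without QHMM replicate 2, miR-208b-3p from 1.02 to 1.38 and passed only without QHMM replicate 1, and miR-499-5p from 1.10 to 1.63 and passed only without QHMM replicate 2.

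With the replicate block the count of calls was 26, of which 22 were among the 28, and by edgeR neither miR-208b-3p (1.25, adjusted p = 0.0719) nor miR-499-3p (1.35, adjusted p = 0.0623) passed. Over 930 names, the deviations from the breed means of equally numbered libraries had correlations of 0.0097, 0.20 and 0.16. These were the highest for each library, but for replicate 1 all values were near 0 (-0.013 to 0.0097). Deviations from a breed mean sum to 0 over its 3 libraries, so these correlations are not independent. The labels do not say that these numbers pair animals.

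Breed differences of ratios near 0 changed sign with single libraries left out. The log2 ratio of miR-499-5p over miR-499-3p ran from -0.19 to 0.13 and that of miR-499-5p over miR-208b-3p from -0.15 to 0.33. The other 3 ratios kept their sign in 8 of 8 alternatives each. Where miR-208a-3p entered a test, with fewer names filtered or a library left out, its adjusted p was 0.185 to 0.721 from edgeR or DESeq2. Both arms of miR-208a and miR-208b-5p rest on few counts, and the part of depth in their missing calls was not tested.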
